A study of Homo sapiens with 24 samples.

Results

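In heart muscle cultures made from human embryonic stem cells, 10 genes of the bone morphogenetic protein (BMP) pathway were followed: the ligand genes BMP2, BMP4, BMP5, BMP7 and BMP10, the target genes ID1, ID2, ID3 and ID4, and the inhibitor gene SMAD6. They were chosen by name and matched by Ensembl identifier, which found 10 of 10 among the 62757 genes of the count table. No threshold on a measured value was applied, but earlier fold changes of these same 24 libraries were in view when the names were chosen, so the counts of called genes below describe the 10 genes and are no independent evidence about them. The cells were the HES3 line with GFP at NKX2-5 and mCherry at NR2F2, and all 8 groups carried both reporters. In each group CRISPR-Cas9 had been aimed at LHX2, at ZNF503, at ZNF711 or, as the control, at TRAC, a T cell receptor gene, so the control cells had been through editing as well. Each of the 4 edited populations was grown as embryoid bodies with a Wnt-modulating protocol for at most 14 days. AM is read here as the atrial condition, in which retinoic acid was given at day 4, and VM as the ventricular condition without it, since the labels do not spell out either abbreviation. There were 3 libraries in each of the 8 groups, numbered 1, 2 and 3, 12 in AM and 12 in VM. The labels name 1 line and do not say how many clones it was split into or whether the numbers stand for separate cultures, so p-values measure only the spread between these libraries.

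BMPs are secreted dimers that bind pairs of type I and type II serine/threonine kinase receptors. The receptors phosphorylate SMAD1, SMAD5 and SMAD9, which enter the nucleus with SMAD4 and switch on target genes. The ID genes are the classic direct targets: their proteins lack a DNA-binding domain, pair with E proteins and so keep basic helix-loop-helix (bHLH) factors off DNA. SMAD6 is also a direct target and closes a negative feedback loop by blocking the receptors' signal. In the embryo BMP signals induce heart mesoderm, BMP2 and BMP4 act in the atrioventricular canal and outflow tract, and BMP10 is made by trabecular and atrial muscle.

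All 10 genes passed the filter on low counts, as did 17724 of the 62757 genes. Libraries held 2899786 to 7438010 counts, with a median of 5113566.5. BMP5 was counted most often, 564 to 2257 times per library, and BMP10 least, 3 to 67 times, so that the AM LHX2 library numbered 1, with 3 BMP10 counts, sat at the detection floor of 3 counts. The spread between libraries of a group was 25.0% for a typical gene (biological coefficient of variation). Levels are given as CPM, the count as a share of the library, with a library size scaled by edgeR's TMM factor (a trimmed mean of log ratios), and differences as fitted log2 fold changes with their standard error (SE). A gene is called where edgeR's quasi-likelihood test over all 17724 genes gave a Benjamini-Hochberg adjusted p below 0.05. The labelled cell type is cardiomyocyte. The 16 cardiomyocyte markers summed to 15785 to 31494 CPM in AM and to 12310 to 43448 CPM in VM. Averaged over the 4 targets, 10 of the 16 were called lower in AM and 1 higher. With ZNF711 as the target, 13 had a fitted difference above 0 and 3 below. The part of cardiomyocyte RNA in the AM and VM differences below was not tested. The 8 atrial markers summed to 600.1 to 902 CPM in AM and to 52.6 to 193 CPM in VM. The sums of the 7 ventricular markers overlapped, at 283 to 694 CPM in AM and 458 to 1251 CPM in VM. With ZNF711 as the target they were 536 to 694 CPM in AM and 458 to 614 CPM in VM.

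Some VM libraries stood apart. The 12 endoderm markers, among them AFP and APOA1, summed to 8738 CPM or more in the 4 VM libraries numbered 3 and to 10478 CPM or more in the 3 VM libraries labelled ZNF711, 1 of which is also numbered 3. The other 6 VM libraries lay between 1760 and 4176 CPM and the 12 AM libraries between 582 and 2660 CPM. In the 4 VM libraries numbered 3 the cardiomyocyte sum was 12310 to 22046 CPM, against 38574 to 43448 CPM in those 6. In bulk RNA, fewer cells of a type and less RNA per cell cannot be told apart. The edited genes themselves check the labels only in part. Libraries labelled ZNF503 held more ZNF503 RNA than the controls, with a mean of 297 CPM against 112 in AM TRAC and 35.7 against 13.2 in VM TRAC. LHX2 and TRAC were scarce in every group, with at most 34 and 19 counts in a library. LHX2 had a mean of 1.19 CPM in AM LHX2 against 1.18 in AM TRAC and 1.58 against 3.19 in the VM pair. ZNF711 had a mean of 42.7 CPM in AM ZNF711 against 54.4 in AM TRAC and 30.9 against 40.0 in the VM pair.

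Levels can be compared between genes only per length, here as CPM per kilobase of all annotated exon bases of the gene. Among the ligand genes BMP5 was highest in both protocols, at 81.6 ± 7.74 CPM per kb in AM and 63.2 ± 22.0 in VM (SD, n = 12). BMP4 came next in AM at 49.2 ± 15.3 CPM per kb, followed by BMP7 at 36.5 ± 8.17, BMP2 at 18.0 ± 2.51 and BMP10 at 2.94 ± 1.49. In VM the order of the ligand levels was BMP5, BMP2 at 29.1 ± 13.7 CPM per kb, BMP7 at 16.8 ± 2.64, BMP4 at 9.20 ± 3.35 and BMP10 at 4.43 ± 1.90. BMP4 thus stood above BMP7 and BMP2 in AM and below both in VM. The SD ranges of the neighbours BMP4 and BMP7 overlapped in AM. In VM those of BMP5 and BMP2, of BMP2 and BMP7, and of BMP4 and BMP10 overlapped.

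Among the target genes the order was the same in both protocols. ID1 was highest per length, at 133 ± 32.4 CPM per kb in AM and 139 ± 46.2 in VM. ID3 followed at 78.0 ± 13.7 and 71.9 ± 15.2 CPM per kb, then ID2 at 51.8 ± 11.96 and 60.0 ± 14.7, and ID4 at 38.1 ± 8.03 and 26.9 ± 6.203. The SD ranges of ID3 and ID2 overlapped in VM, and those of ID2 and ID4 overlapped in AM. SMAD6, whose annotated exons are the longest of the 10 genes at 8563 bases, stood at 13.2 ± 1.88 CPM per kb in AM and 20.4 ± 1.77 in VM.

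**Figure D1:**
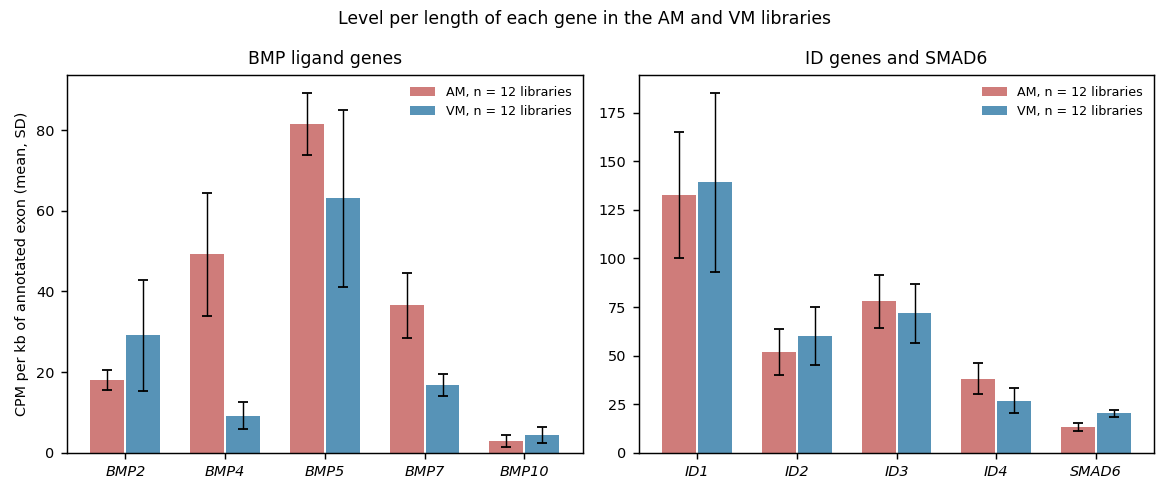
Mean level per kilobase of annotated exon (y axis, CPM per kb) of the 5 ligand genes (left) and of the ID genes and SMAD6 (right) in the 12 AM and 12 VM libraries, with the SD as bars. BMP4 stands at 49.2 in AM and 9.20 in VM. For each of ID1, ID2, ID3 and ID4 the SD bar in AM overlaps that of the same gene in VM.

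The first comparison asks how the pathway genes differed between the atrial and the ventricular protocol. Averaged over the 4 targets, 6 of the 10 genes were called, where 34.5% of all tested genes were. BMP4, BMP7, BMP5 and ID4 were higher in AM, as were 16.8% of all tested genes, and BMP2 and SMAD6 were lower, as were 17.6%. With the replicate block 8 members were called, where 41.7% of all genes were. The median log2 fold change was 0.02 over the 10 genes and −0.01 over all tested genes. For BMP4, BMP7 and SMAD6 the 12 AM libraries did not overlap the 12 VM libraries, which held for 4.25% of all tested genes.

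BMP4 (ENSG00000125378.16, chr14:53949736-53958761, minus strand, GRCh38), a ligand that patterns heart mesoderm and the outflow tract, differed most. Its level was 141, 133 and 193 CPM in AM TRAC replicates 1, 2 and 3 and 14.4, 23.7 and 38.7 CPM in VM TRAC. In the libraries labelled LHX2 it was 97.0, 101 and 134 CPM in AM and 18.8, 18.5 and 37.2 CPM in VM. The lowest AM library stood far above the highest VM library in both of these pairs. In the libraries labelled ZNF503 the level was 121, 99.0 and 177 CPM in AM and 19.5, 19.2 and 42.1 CPM in VM. With ZNF711 as the target it was 173, 241 and 212 CPM in AM and 36.8, 30.5 and 40.7 CPM in VM. In VM the library numbered 3 was the highest of its group in 4 of 4 groups. BMP4 rose 5.25-fold over the 4 targets (log2 fold change 2.39, SE 0.18, adjusted p = 1.25e-09 by edgeR), and it was called within each target, with log2 fold changes of 2.16 to 2.59. Without the VM libraries numbered 3 the log2 fold change was 2.75 (SE 0.13).

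BMP7 (ENSG00000101144.13, chr20:57168748-57266629, minus strand) encodes a ligand of the same family that can pair with BMP2 or BMP4. It measured 168, 182 and 226 CPM in AM TRAC and 74.1, 82.3 and 89.6 CPM in VM TRAC. In AM ZNF711, the group with the highest mean, it measured 208, 301 and 224 CPM, against 88.3, 87.3 and 89.2 CPM in VM ZNF711. Over all AM libraries the lowest level was 136, the median 196 and the highest 301 CPM, and over all VM libraries they were 71.8, 89.4 and 120.1 CPM. BMP7 rose 2.16-fold (log2 fold change 1.11, SE 0.09, adjusted p = 2.80e-10 by edgeR). It was called within each target, least with LHX2 (log2 fold change 0.81, SE 0.18) and most with ZNF711 (1.47, SE 0.18). Whether these 2 differed from TRAC's 1.23 was tested as an interaction, and neither was called (adjusted p = 1 and 0.973).

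BMP5 (ENSG00000112175.8, chr6:55753645-55875564, minus strand) encodes a ligand that acts with BMP7 in the developing heart. It lay between 282 and 383 CPM in the AM libraries, with a median of 319. The VM libraries ran from 139 to 398 CPM with a median of 229, so the VM range enclosed the AM range. In VM it measured 253, 357 and 182 CPM with TRAC as the target, 275, 398 and 205 with LHX2, 288, 362 and 177 with ZNF503, and 139, 202 and 158 with ZNF711. The library numbered 3 was thus the lowest of its VM group in 3 of 4 groups. BMP5 rose 1.32-fold over the 4 targets (log2 fold change 0.40, SE 0.12, adjusted p = 0.0122 by edgeR). Within a target it was called with ZNF711 (0.89, SE 0.24, adjusted p = 0.0173) and not with TRAC (0.27), LHX2 (0.26) or ZNF503 (0.18). Without the VM library numbered 3 of the target these were 0.066, 0.069 and −0.060, and without the one numbered 2 they were 0.56, 0.55 and 0.43. Blocked within each protocol, BMP5 was called with TRAC (0.32, adjusted p = 0.0356) and LHX2 (0.31, adjusted p = 0.0466). That block called 4204 and 3459 of all 17724 genes with TRAC and LHX2. The call over the 4 targets was lost without the VM libraries numbered 3 (0.23, SE 0.09, adjusted p = 0.0582) and when ZNF711 was left out of the average (0.24, SE 0.14, adjusted p = 0.228). The ZNF711 call was lost without AM ZNF711 replicate 2, VM ZNF711 replicate 1 or VM ZNF711 replicate 3, with log2 fold changes of 0.80 or more and adjusted p of 0.0717 or less in those fits.

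BMP2 (ENSG00000125845.7, chr20:6767664-6780280, plus strand), the ligand closest to BMP4 in sequence, was even in AM and uneven in VM. The 12 AM libraries lay between 47.4 and 82.7 CPM, with a median of 63.8. In VM it measured 58.5, 58.6 and 179 CPM with TRAC, 82.5, 89.1 and 106 with LHX2, 63.3, 59.4 and 154 with ZNF503, and 81.4, 126 and 200.2 with ZNF711. The library numbered 3 was the highest in 4 of 4 VM groups. BMP2 fell 1.60-fold in AM against VM (log2 fold change −0.68, SE 0.20, adjusted p = 0.0133 by edgeR). The call was lost without the VM libraries numbered 3 (−0.22, SE 0.09, adjusted p = 0.0649) and when ZNF711 was left out of the average (−0.57, SE 0.23, adjusted p = 0.0800). No target gave a call alone, with log2 fold changes of −0.61 for TRAC, −0.40 for LHX2, −0.70 for ZNF503 and −1.02 for ZNF711. The VM library numbered 3 moved each of them: without it they were 0.16 for TRAC, −0.29 for LHX2, −0.11 for ZNF503 and −0.62 for ZNF711. With no filter on low counts BMP2 was called with TRAC (adjusted p = 0.0226), ZNF503 (0.00719) and ZNF711 (3.44e-06). That setting called 2279, 1891 and 2550 genes in all in these comparisons, against 2003, 1571 and 2345 with the filter. The ZNF711 difference was also called by DESeq2, in a fit of the compared groups alone, with the block within each protocol (−0.95, adjusted p = 0.00201) and without all VM libraries numbered 3 (−0.64, adjusted p = 0.0180). In that order these fits called 2851, 2989, 4923 and 2215 genes in all.

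BMP10 (ENSG00000163217.2, chr2:68865481-68871517, minus strand), a ligand of heart muscle that signals to endothelium, was scarce. It ran from 0.963 to 8.73 CPM in AM with a median of 4.19, and from 4.14 to 13.7 CPM in VM with a median of 6.30. The groups overlapped. The log2 fold change was −0.54 (SE 0.26, adjusted p = 0.115 by edgeR), and with the replicate number as a block it was −0.59 with an adjusted p of 0.0493. Without AM LHX2 replicate 3 it was −0.73 with an adjusted p of 0.0317.

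**Figure D2:**
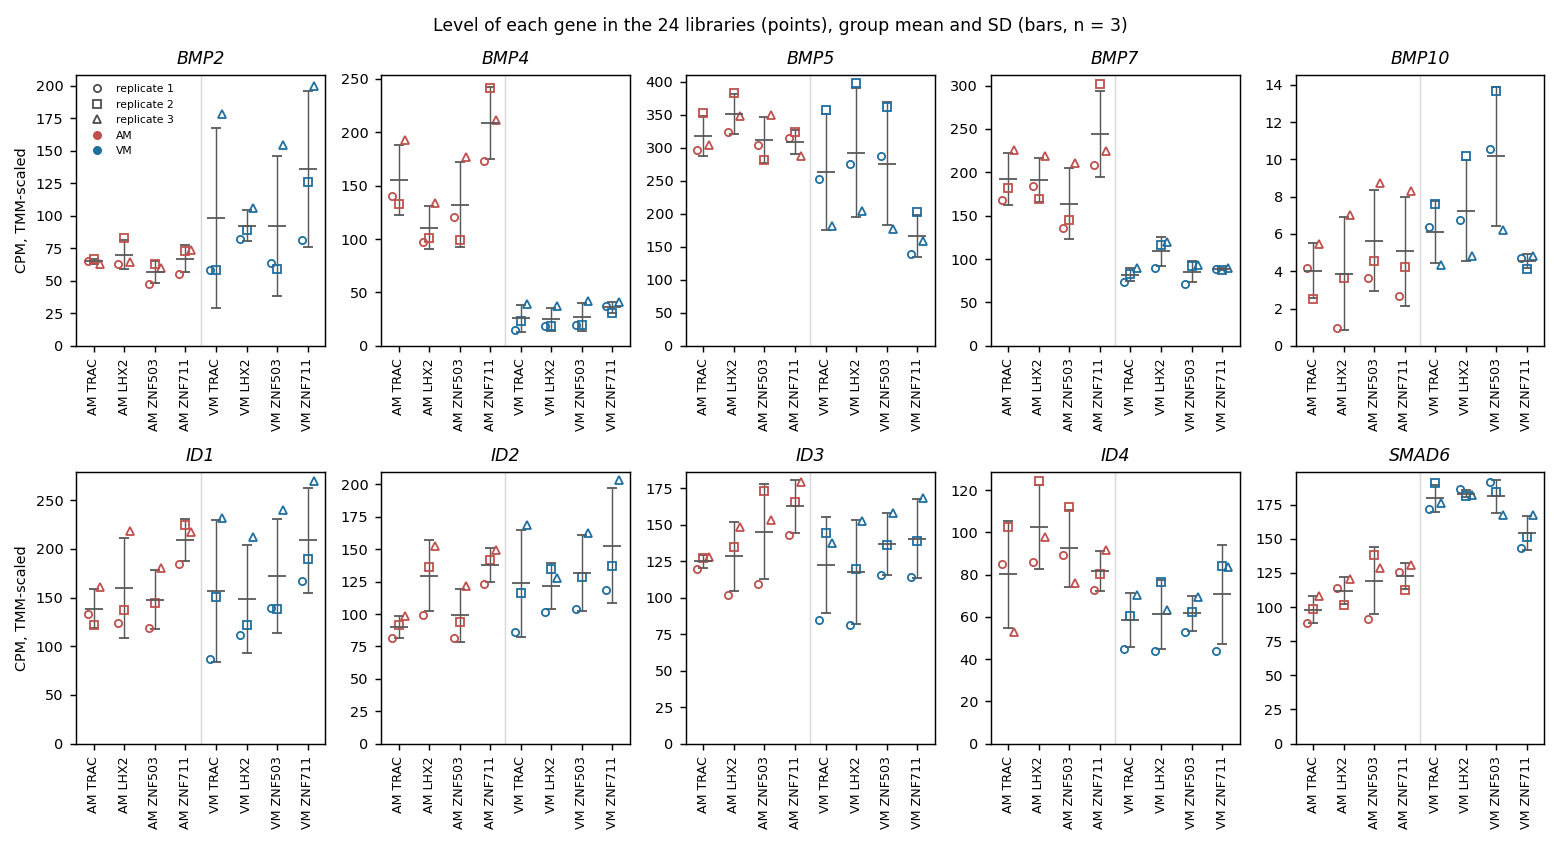
Level of the 10 genes (y axes, CPM, each from 0) in the 24 libraries, by group, with the replicate number as the symbol, AM in red and VM in blue, and the group mean and SD (n = 3) as bars. BMP4 and BMP7 in AM lie above every VM library and SMAD6 in AM below every VM library, and BMP2 is highest in the libraries numbered 3 of all 4 VM groups.

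The ID genes split. ID4 was higher in AM, and ID1, ID2 and ID3 were not called without a block. The stretch of 250 bases before the RefSeq start is shown for ID1, the most abundant ID gene per length and not called, and for ID4, the one that was called (GRCh38.p14, plus strand, chr20:31605039-31605288 and chr6:19837120-19837369). The 4 motifs sought, all palindromes that read alike on both strands and with overlapping matches counted, were GGCGCC and GTCTAGAC, which SMAD proteins bind, the E-box CAGCTG, which bHLH factors bind, and TGACGTCA, the cAMP response element. The ID4 stretch holds a CAGCTG starting 21 bases before the start, in capitals. That motif is in 14% of the 35116 RefSeq promoter stretches of this length, GGCGCC in 16.4%, GTCTAGAC in 0.182% and TGACGTCA in 1.65%. The ID1 stretch holds none of the 4, while that of ID2, which was not called either without a block, holds CAGCTG 205 bases before its start. The ID3 stretch holds none either. For BMP4, the stretch at chr14:53955051-53955300 (minus strand) holds GGCGCC 232 bases before its start. Bases further upstream were not searched.
ID1: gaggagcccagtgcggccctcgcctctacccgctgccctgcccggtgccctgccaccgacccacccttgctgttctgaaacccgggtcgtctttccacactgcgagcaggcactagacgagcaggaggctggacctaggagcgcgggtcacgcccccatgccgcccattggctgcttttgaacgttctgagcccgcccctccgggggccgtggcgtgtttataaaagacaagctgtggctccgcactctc
ID4: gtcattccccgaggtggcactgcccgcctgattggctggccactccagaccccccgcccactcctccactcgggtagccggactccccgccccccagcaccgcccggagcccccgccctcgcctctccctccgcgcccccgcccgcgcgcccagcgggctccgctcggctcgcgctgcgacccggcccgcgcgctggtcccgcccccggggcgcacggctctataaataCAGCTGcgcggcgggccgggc

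ID4 (ENSG00000172201.12, chr6:19837386-19840684, plus strand), which can bind the other ID proteins as well as E proteins, measured 85.0, 103 and 52.7 CPM in AM TRAC and 44.9, 60.4 and 70.2 CPM in VM TRAC. With LHX2 as the target it measured 85.7, 124 and 97.7 CPM in AM and 43.8, 76.3 and 63.4 in VM. The AM and VM libraries overlapped with TRAC and ZNF711 and did not with LHX2 and ZNF503. Over the 4 targets ID4 rose 1.41-fold (log2 fold change 0.50, SE 0.13, adjusted p = 0.00395 by edgeR). It was called within no target, with log2 fold changes of 0.45 for TRAC, 0.75 for LHX2, 0.58 for ZNF503 and 0.20 for ZNF711. The LHX2 difference was called with the replicate block (0.76, adjusted p = 0.0170) and without VM LHX2 replicate 2 (0.95, adjusted p = 0.0478), and also by DESeq2, with library size alone, with no filter and in a fit of the compared groups alone. With the block within each protocol ID4 was called with TRAC (0.45, adjusted p = 0.0310), LHX2 (0.77, adjusted p = 0.000398) and ZNF503 (0.58, adjusted p = 0.00653), and with no filter with ZNF503. The block within each protocol called 4204, 3459 and 3357 of all 17724 genes with TRAC, LHX2 and ZNF503. With LHX2, DESeq2 called 1956 genes in all, library size alone 1642, no filter 1910 and the compared groups alone 1246. With ZNF503, no filter called 1891. The ZNF711 difference was −0.016 without VM ZNF711 replicate 1.

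ID1 (ENSG00000125968.9, chr20:31605283-31606515, plus strand), the ID gene most used as a readout of BMP signalling, ran from 119 to 225 CPM in AM with a median of 153 and from 87.0 to 269 CPM in VM with a median of 159. The VM range enclosed the AM range. Its log2 fold change was −0.07 (SE 0.16, adjusted p = 0.768), and the sign was not stable: scaling by library size alone gave 0.014, leaving out VM TRAC replicate 3 gave 0.038, VM LHX2 replicate 3 0.023 and VM ZNF503 replicate 3 0.014, and leaving out all 4 VM libraries numbered 3 gave 0.25 (SE 0.11, adjusted p = 0.114). ID3 (ENSG00000117318.9, chr1:23557918-23559794, minus strand), which overlaps ID1 in function, ran from 102 to 179 CPM in AM and from 81.0 to 168 CPM in VM, with a log2 fold change of 0.11 (SE 0.11, adjusted p = 0.465). Blocked within each protocol, ID3 was called as higher in AM (0.13, adjusted p = 0.0481), where 7967 of all 17724 genes were called.

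ID2 (ENSG00000115738.10, chr2:8678845-8684453, plus strand), which is expressed in the second heart field and the conduction system, ran from 81.2 to 153 CPM in AM and from 86.4 to 203 CPM in VM. Its log2 fold change was −0.23 (SE 0.11, adjusted p = 0.129 by edgeR), and −0.28 with an adjusted p of 0.0448 without VM TRAC replicate 1. Blocked on the replicate number it was −0.21 with an adjusted p of 0.00391, and ID2 was then also called with TRAC (−0.42, adjusted p = 0.0122) and with ZNF503 (−0.41, adjusted p = 0.0171). Without the VM libraries numbered 3 and with no block the mean difference was −0.04 (SE 0.09). ID2 shares 38 exon bases with the antisense gene ID2-AS1, which had 2578 counts in all libraries against 14692 for ID2. Whether the counting used the strand is not given in the sources used here, so reads of that overlap cannot be assigned to either gene with certainty.

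SMAD6 (ENSG00000137834.15, chr15:66702228-66782848, plus strand) was the gene that fell with no overlap. Its 250 bases before the RefSeq start (GRCh38.p14, chr15:66701986-66702235, plus strand) are shown because they hold the rarest of the 4 motifs, GTCTAGAC in capitals, starting 12 bases before the start.
SMAD6: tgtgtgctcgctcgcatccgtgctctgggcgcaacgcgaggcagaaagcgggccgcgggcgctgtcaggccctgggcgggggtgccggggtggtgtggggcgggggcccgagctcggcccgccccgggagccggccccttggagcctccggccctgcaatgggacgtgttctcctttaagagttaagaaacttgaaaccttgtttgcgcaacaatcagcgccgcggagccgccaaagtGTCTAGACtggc
The match is a description of the letters, and no binding was measured here.

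SMAD6 measured 88.2, 98.3 and 108 CPM in AM TRAC and 172, 191 and 176 CPM in VM TRAC. In the libraries labelled LHX2 it measured 114, 101 and 121 CPM in AM and 186, 181 and 182 in VM, and in those labelled ZNF503 91.6, 138 and 129 in AM and 191, 184 and 167 in VM. The gap was narrowest with ZNF711, at 125, 112 and 131 CPM in AM and 143, 151 and 168 in VM. The AM libraries lay below the VM libraries in 4 of 4 targets. SMAD6 fell 1.54-fold over the 4 targets (log2 fold change −0.63, SE 0.07, adjusted p = 6.06e-08 by edgeR). It was called with TRAC (−0.87, SE 0.14), LHX2 (−0.71, SE 0.14) and ZNF503 (−0.60, SE 0.13) and not with ZNF711 (−0.33, SE 0.14, adjusted p = 0.113; 0.0426 with the replicate block). Without AM ZNF503 replicate 1, its ZNF503 value was −0.44 with an adjusted p of 0.0544. The difference was as large without the VM libraries numbered 3 (−0.63, SE 0.07).

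Within single targets 3 of the 10 genes were called each time. The 3 were BMP4, BMP7 and SMAD6 with TRAC, LHX2 and ZNF503, and BMP4, BMP7 and BMP5 with ZNF711. The share of all tested genes called was 11.3% with TRAC, 8.56% with LHX2, 8.86% with ZNF503 and 13.2% with ZNF711. The AM and VM libraries did not overlap for 3 members with TRAC, 4 with LHX2, 4 with ZNF503 and 5 with ZNF711, and for 26.1%, 23.9%, 23.5% and 32.9% of all tested genes. With the replicate block 4 members were called in each target, and 19.4%, 15.7%, 14.9% and 23.4% of all genes.

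Within VM the levels of BMP2, BMP4, ID1, BMP5 and BMP10 differed with the library number and with the endoderm marker sum. In the 6 VM libraries numbered 1 or 2 and not labelled ZNF711, BMP2 lay between 58.5 and 89.1 CPM. In the 3 numbered 3 and not labelled ZNF711 it lay between 106 and 179 CPM, and in the 3 labelled ZNF711 between 81.4 and 200.2 CPM. The same 3 sets held BMP4 at 14.4 to 23.7, 37.2 to 42.1 and 30.5 to 40.7 CPM.

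ID1 followed BMP4, at 87.0 to 150.2, 213 to 239.6 and 167 to 269 CPM in the same 3 sets. BMP5 went the other way, at 253 to 398, 177 to 205 and 139 to 202 CPM, and so did BMP10, at 6.36 to 13.7, 4.32 to 6.23 and 4.14 to 4.81 CPM. SMAD6 stood at 172 to 191, 167 to 182 and 143 to 168 CPM, and BMP7 at 71.8 to 116, 89.6 to 120.1 and 87.3 to 89.2 CPM. For ID2, ID3 and ID4 the sets overlapped, as in ID4 with 43.8 to 76.3, 63.4 to 70.2 and 43.8 to 84.3 CPM. In AM, where the endoderm sum stayed at or below 2660 CPM, BMP2 of the 4 libraries numbered 3 was 60.0 to 73.6 CPM against 47.4 to 82.7 CPM in the other 8. BMP10 in AM was highest in the library numbered 3 of 4 of 4 groups, at 5.47 to 8.73 CPM against 0.963 to 4.58 CPM, the reverse of VM. ID2 in AM was also highest there in 4 of 4 groups. For ID1, ID3, BMP4, BMP7 and SMAD6 this held in 3 of 4 AM groups, and for BMP2, BMP5 and ID4 in 1. The AM medians, numbered 3 against the others, were 199 and 135 CPM for ID1 and 185 and 127 CPM for BMP4, with overlapping ranges. Those of the endoderm sum were 1625 and 766 CPM. The part of the endoderm-marked RNA in these differences was not tested.

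**Figure D3:**
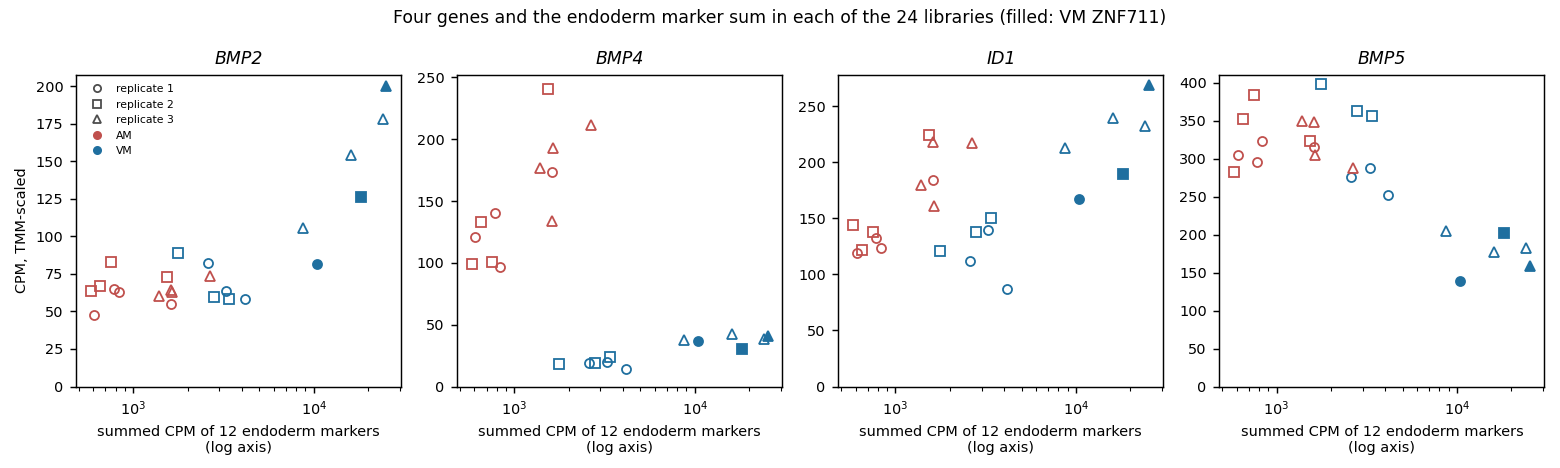
CPM of BMP2, BMP4, ID1 and BMP5 (y axes) against the summed CPM of 12 endoderm markers (x axes, log scale) in each of the 24 libraries, AM in red and VM in blue, symbols by replicate number and VM ZNF711 filled. The VM libraries with sums of 8738 CPM or more hold BMP4 at 30.5 to 42.1 CPM and BMP5 at 139 to 205 CPM.

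The second comparison set each knockout label against the TRAC control of the same protocol. DESeq2 called no member in any of the 6 comparisons. The edgeR fit of all 24 libraries, filtered and without a block, called none either. Of all tested genes that fit called 0% in the 3 AM comparisons and in VM with LHX2 or ZNF503, and 0.0169% in VM with ZNF711. With the replicate number as a block ID2, ID1 and BMP5 were called in some of the comparisons, as given below. Without a block, 1, 1 and 2 members had an unadjusted p under 0.05 in AM for LHX2, ZNF503 and ZNF711. In VM 1, 0 and 1 did. Of all 17724 tested genes, 1372, 309 and 618 did in AM and 463, 274 and 1666 in VM, in the same order. Libraries did not overlap those of TRAC for 1, 0 and 4 members in AM (19%, 8.55% and 11.7% of all tested genes, in the order LHX2, ZNF503 and ZNF711) and for 1, 0 and 1 members in VM (5.12%, 4.32% and 10.1%). The 3 comparisons of a protocol share their TRAC libraries, so their values are given side by side and not as separate evidence.

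ID2 had the highest fitted difference of the 10 genes in 2 of the AM comparisons. Within AM it measured 81.2, 91.5 and 98.2 CPM with TRAC as the target, 99.2, 137 and 153 with LHX2, 81.5, 94.1 and 121 with ZNF503, and 124, 141 and 149 with ZNF711. The AM LHX2 and AM ZNF711 libraries lay above the TRAC libraries, and the AM ZNF503 libraries overlapped them. The log2 fold change was 0.52 (SE 0.23, adjusted p = 0.604 by edgeR) in AM LHX2 and 0.61 (SE 0.23) in AM ZNF711. ID2 was called in both with the replicate block, at 0.50 (SE 0.12, adjusted p = 0.0325) and 0.61 (SE 0.12), where 1.13% and 0.0395% of all genes were called. An earlier result of these libraries that named ID2 in AM ZNF711 was known when the list was drawn up, so that value is a description. In VM ID2 overlapped TRAC in all 3 comparisons.

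In AM ZNF711 the fitted difference from TRAC was above 0 for 9 of the 10 genes, BMP5 excepted (−0.04), with a median of 0.34 against 0.01 over all tested genes. For 4 of them, ID1, ID2, ID3 and SMAD6, the AM ZNF711 libraries lay above the TRAC libraries. ID1 measured 133, 122 and 161 CPM in AM TRAC and 184, 225 and 217 CPM in AM ZNF711 (log2 fold change 0.59, SE 0.32). ID3 measured 119.7, 127 and 128 CPM in AM TRAC and 143, 165 and 179 CPM in AM ZNF711 (0.38, SE 0.22). SMAD6 stood at 125, 112 and 131 CPM in AM ZNF711 (0.32, SE 0.14) against the AM TRAC levels above. The ligand genes BMP7 (0.35, SE 0.17) and BMP4 (0.43, SE 0.32) overlapped TRAC. The adjusted p of these 5 genes was 1 without a block. Blocked within each protocol, ID1 was called (0.60, adjusted p = 0.0215), as was ID2 (0.61, adjusted p = 0.00439), where 94 of all 17724 genes were. All 12 endoderm markers also had a fitted difference above 0 in this comparison, none of them called, and their sum was 1526 to 2660 CPM against 652 to 1636 CPM in AM TRAC. Its part in these values was not tested.

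In AM LHX2 the BMP4 level of 97.0, 101 and 134 CPM lay below or within the TRAC range of 133 to 193 CPM (log2 fold change −0.49, SE 0.33, adjusted p = 0.756 by edgeR). In AM ZNF503 SMAD6 had a log2 fold change of 0.28 (SE 0.14, adjusted p = 1). In VM LHX2 BMP7 measured 89.9, 116 and 120.1 CPM against 74.1, 82.3 and 89.6 in TRAC, without overlap (0.41, SE 0.18, adjusted p = 1). In VM ZNF503 the fitted differences of 9 of the 10 genes were above 0 and the libraries of all 10 overlapped those of TRAC.

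VM ZNF711 differed from VM TRAC most in BMP5, at 139, 202 and 158 CPM against 253, 357 and 182 (log2 fold change −0.66, SE 0.24, adjusted p = 0.359 by edgeR). BMP2 (0.46, SE 0.40), ID1 (0.41, SE 0.32) and ID2 (0.30, SE 0.23) had positive differences with overlapping libraries. BMP4 was also higher with overlap, at 36.8, 30.5 and 40.7 CPM against 14.4, 23.7 and 38.7. With the replicate block its difference was 0.53 (SE 0.22), not called. SMAD6, at 143, 151 and 168 CPM, lay below VM TRAC (−0.22, SE 0.13, adjusted p = 0.630). Blocked within each protocol, BMP5 (−0.61, adjusted p = 0.000766) and ID1 (0.47, adjusted p = 0.0161) were called, where 1485 of all 17724 genes were. Single libraries moved the values both ways. Leaving out VM TRAC replicate 3 gave 1.20 for BMP2, 0.80 for ID1, 0.57 for ID2 and −0.89 for BMP5, which was then called with an adjusted p of 0.0453. Leaving out VM ZNF711 replicate 3 gave 0.063 for BMP2 and 0.034 for ID2, leaving out VM TRAC replicate 1 gave 0.12 for ID1, and leaving out VM TRAC replicate 2 gave −0.40 for BMP5. Without all 4 VM libraries numbered 3 both were called, BMP5 at −0.84 (SE 0.20, adjusted p = 0.0119) and BMP2 at 0.83 (SE 0.20, adjusted p = 0.0138). That fit, chosen after seeing the data, called 884 genes in all in this comparison, against 3 with all libraries kept. All 12 endoderm markers had fitted differences above 0 and all 16 cardiomyocyte markers below 0 in this comparison, none of them called. The endoderm sum was 10478 CPM or more in VM ZNF711 and 3406, 4176 and 24153 CPM in VM TRAC replicates 2, 1 and 3.

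**Figure D4:**
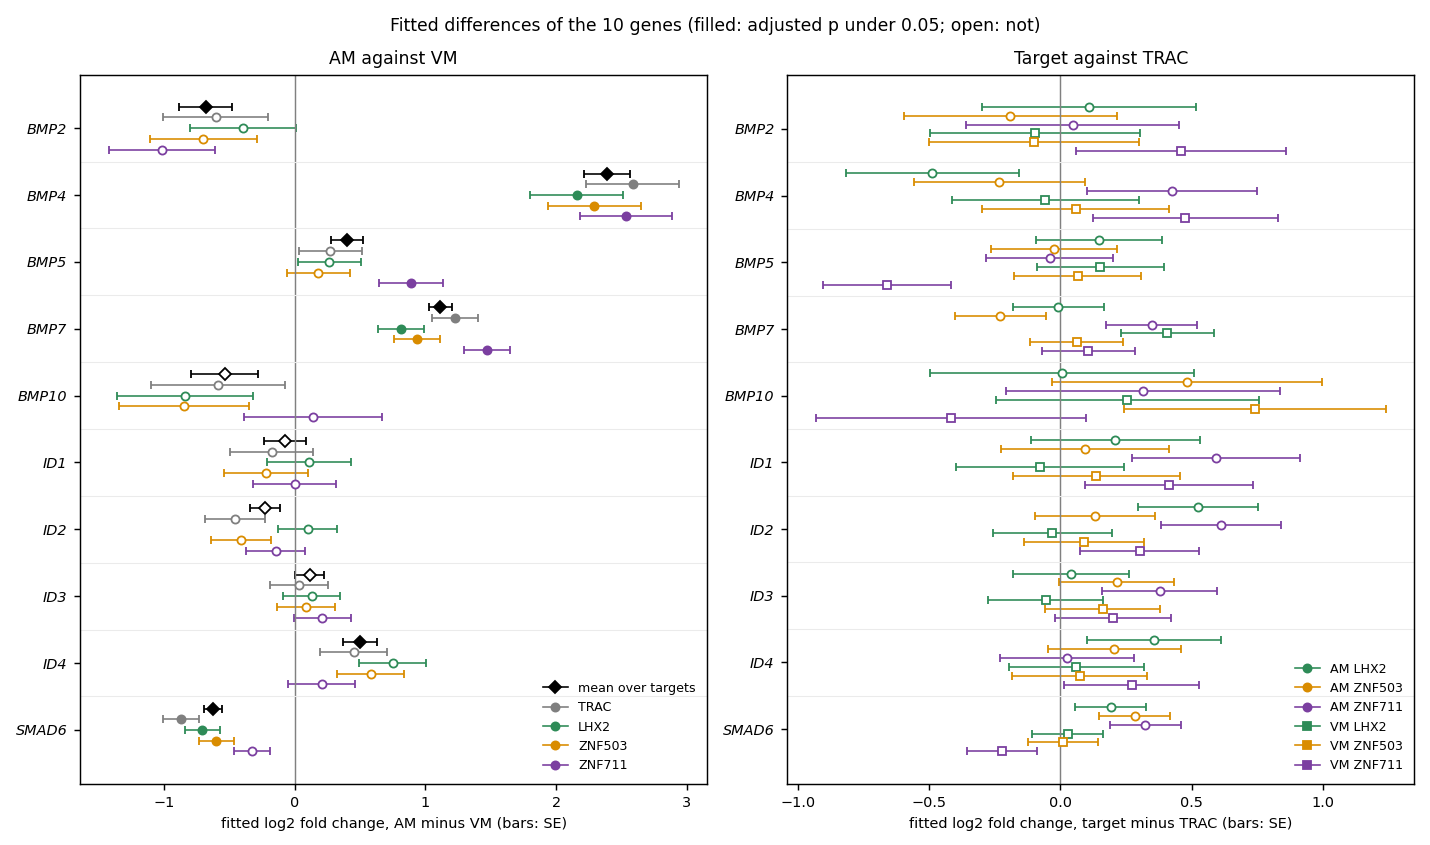
Fitted log2 fold changes (x axes, bars are SE) of the 10 genes for AM against VM, over the 4 targets and within each (left), and for each target against TRAC in AM (circles) and VM (squares) (right); filled symbols have an adjusted p under 0.05. BMP4 lies between 2.16 and 2.59 in the 4 targets, and no symbol is filled in the right panel.

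Whether a knockout label acted differently in the 2 protocols was tested as an interaction, and none of the 10 genes was called for any of the 3 targets by edgeR without a block or by DESeq2. The share of all tested genes called without a block was 0%, 0% and 0.00564% for LHX2, ZNF503 and ZNF711. At an unadjusted p under 0.05 there were 0, 0 and 1 members, beside 660, 346 and 1135 of all 17724 tested genes. The 1 member was SMAD6 for ZNF711, which was higher than TRAC in AM and lower in VM (interaction 0.55, SE 0.19, adjusted p = 0.601). The BMP5 value for ZNF711 was 0.62 (SE 0.34, adjusted p = 0.858). With the replicate number as a block within each protocol, edgeR called 450 of all 17724 genes for ZNF711. Both were among them, SMAD6 at 0.55 (adjusted p = 0.0384) and BMP5 at 0.57 (adjusted p = 0.0459). Without VM TRAC replicate 2 the BMP5 value was 0.35.

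Across the 24 libraries, with the mean of each protocol taken off, ID1, ID2 and ID3 varied together. Pearson's r of log2 CPM was 0.85 for ID1 and ID2, 0.82 for ID1 and ID3, and 0.73 for ID2 and ID3. ID4 varied less with ID1 (r = 0.29), and the sign differed between AM (−0.24) and VM (0.64). For ID4 with ID2 and with ID3 r was 0.48 and 0.51, with 0.12 and 0.15 within AM and 0.81 and 0.78 within VM. Of the ligand genes BMP4 varied most like ID1 over both protocols (r = 0.87) and within VM (0.95), while within AM BMP7 did (0.81, against 0.73 for BMP4). BMP5 ran against BMP4 in VM (r = −0.80) and hardly in AM (−0.18). SMAD6 varied little with ID1 over both protocols (r = 0.16), and the sign differed between AM (0.60) and VM (−0.31). The points share group, replicate number and library composition, so these r describe the 24 libraries and carry no p.

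Of 11416 genes at that level, the 2 most like each member by the same measure were KRT19 and NECTIN2 for ID1 (r of 0.93 for both), TSPAN13 and RNF11 for ID2 (0.87 and 0.85), and FTH1 and RIC8A for ID3 (0.92 and 0.91). For ID4 they were FBXO45 and HSPA5 (0.80 and 0.79). For the ligands they were KLF6 and THBS1 for BMP2 (both 0.89), HDLBP and KRT8 for BMP4 (both 0.89), HIPK3 and NREP for BMP5 (0.97 and 0.96) and WASF1 and SYNPO2L for BMP7 (0.80 and 0.79). SMAD6 had the lowest likeness, to DENND1A and DOK4 (0.73 and 0.71). BMP10 was too low for this measure. With the protocol means left in, the sign turned for HDLBP with BMP4 (r = −0.40) and SYNPO2L with BMP7 (−0.19), and the genes most like BMP4 were MXRA5 and NR2F2 (0.98 and 0.97), the latter the locus of the mCherry reporter.

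The other genes of the pathway were followed in 7 lists. Of 70 genes listed 64 were tested, and between AM and VM, over the 4 targets, 22 were higher and 16 lower, 59.4% of those tested against 34.5% of all genes. The lists were written from textbook knowledge but with results of these data known, and a list near a known difference says nothing independent. With scaling to library size alone, 60.3% of all called genes were higher in AM, against 48.8% with TMM.

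Among the other ligand genes, 3 of 9 rose and 2 fell. GDF10 rose from 2.54 ± 1.75 CPM in VM to 21.8 ± 8.36 in AM (SD, n = 12, log2 fold change 3.08, SE 0.25). GDF2, which encodes BMP9, a circulating ligand of endothelium and the nearest relative of BMP10, rose from 5.23 ± 1.58 to 31.6 ± 6.25 CPM (2.60, SE 0.14). For both, every AM library lay above every VM library, which sets GDF2 apart in direction from BMP10 itself (−0.54, not called). BMP6 fell (−1.13, SE 0.40) and GDF7 fell (−2.84, SE 0.58), the latter with an AM mean of 0.338 CPM, under the detection floor of every library.

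Of the 10 receptor and co-receptor genes 6 rose and none fell, by edgeR with 4 not called. BMPR1B, a type I receptor, had a log2 fold change of 0.97 (SE 0.28), ENG, the co-receptor endoglin for BMP9 and BMP10, 0.81 (SE 0.09), ACVRL1, the type I receptor ALK1 of the same ligands, 0.57 (SE 0.18), and ACVR2A, a type II receptor, 0.47 (SE 0.09). The 10 endothelial and endocardial markers summed to 448 to 864 CPM in AM and 370.3 to 535 CPM in VM. Of these 10 markers 6 were called higher and 1 lower. Their part in the ENG and ACVRL1 values was not tested. Of the SMAD transducers 1 of 4 was called: SMAD9 fell from 73.1 ± 6.69 to 44.5 ± 7.32 CPM (−0.73, SE 0.07) with no overlap, as SMAD6 did.

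The extracellular antagonists and binders went both ways, 4 of 16 higher and 6 lower. NOG, which encodes the BMP trap noggin, fell from 11.6 ± 3.04 to 2.903 ± 1.45 CPM (adjusted p = 7.09e-07 by edgeR) with no overlap. GREM1 (−2.28, SE 0.57), an antagonist of BMP2 and BMP4, fell as well, as did CHRDL2 (−3.92, SE 0.80), whose AM mean of 0.181 CPM is under the detection floor. CHRDL1, a chordin-like antagonist, rose from 2.61 ± 2.84 to 12.3 ± 2.44 CPM (2.79, SE 0.30). The intracellular and membrane inhibitors had 3 of 7 higher and 2 lower. The relative of SMAD6, SMAD7, fell by 0.25 on the log2 scale (SE 0.09), TOB1 fell by 0.66 (SE 0.10), and SKIL (0.37, SE 0.08) and SMURF2 (0.23, SE 0.07) rose.

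Of 11 other BMP-responsive transcription factor genes 2 rose and 5 fell. TBX20 (−1.81, SE 0.16) and TBX2 (−1.43, SE 0.12), T-box factors of chamber and canal muscle, and ATOH8 (−0.93, SE 0.19) fell, and HEY1, a Notch and BMP target of atrial muscle, rose (1.71, SE 0.13). The list of E protein genes and other bHLH genes had 4 of 7 higher and none lower. TCF21, a bHLH factor of epicardium, rose from 2.11 ± 1.32 to 21.8 ± 11.96 CPM (3.31, SE 0.35), TWIST1 had 0.66 (SE 0.16), and the E protein genes TCF3 (0.35, SE 0.08) and TCF12 (0.28, SE 0.06) rose. In the same comparison 5 of 10 fibroblast and mesenchymal markers, a list that holds TCF21 and TWIST1 themselves, were called higher and 1 lower, with sums of 8880 to 13344 CPM in AM and 7269 to 17080 CPM in VM, and of 9 tested epicardial markers 2 were higher and 2 lower. Their part in the TCF21 and TWIST1 values was not tested. In the 6 comparisons with TRAC none of the 64 genes was called without the block. With the replicate block SKIL and TWIST1 were called in AM LHX2 (0.48 and −1.08), TBX3 in AM ZNF711 (0.86), and RGMA, CHRDL1, BMPER, GATA4 and HAND2 in VM ZNF711, where 2.27% of all genes were called. Of these 5, RGMA and CHRDL1 were higher and the other 3 lower.

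**Figure D5:**
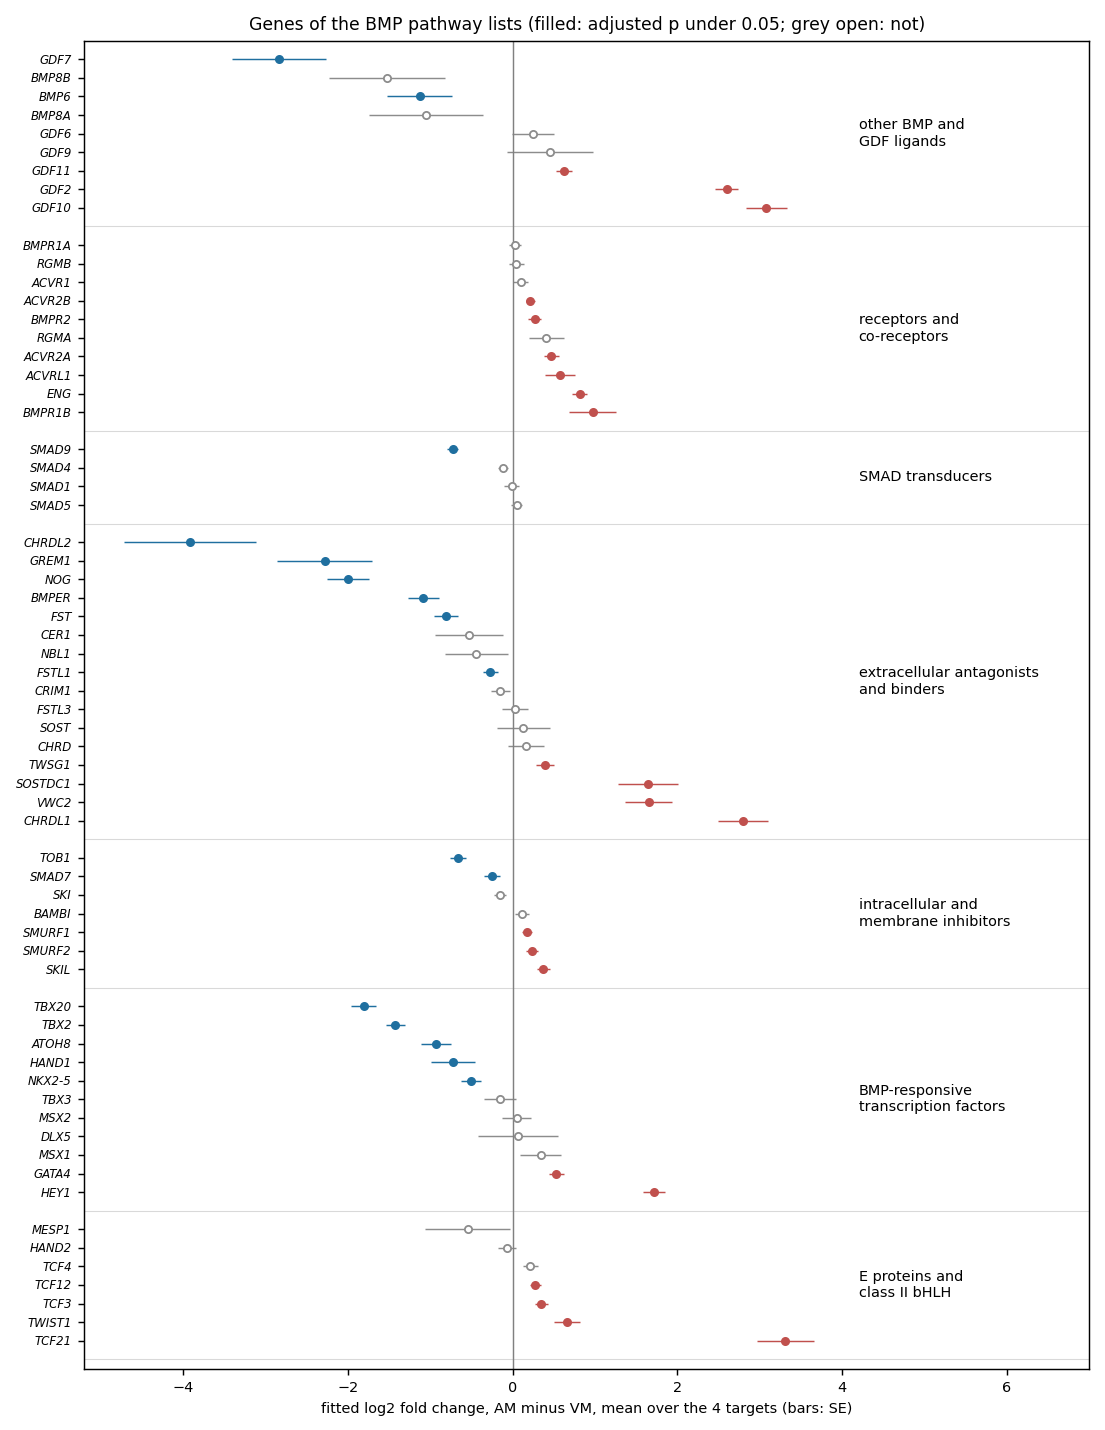
Fitted log2 fold change, AM minus VM over the 4 targets (x axis, bars are SE), of the 64 tested genes of the 7 pathway lists, one gene per line; filled symbols have an adjusted p under 0.05. Of the receptor genes 6 are filled, all above 0, and the antagonists reach from −3.92 for CHRDL2 to 2.79 for CHRDL1.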

How the data were processed

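Bulk RNA-seq gene counts of 24 libraries, in 8 groups of 3, were used as deposited by the authors, in the unit count (raw counts per gene). Reads were aligned with STAR to GRCh38, per the submitters' processing notes; the counting program, annotation release and use of strand are not given in the sources used here. The labels give polyA RNA in one place and KAPA RiboErase depletion in another. Libraries held 2899786 to 7438010 counts, all from named genes, and the depth limits BMP10 most; floors cover counting error only.

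Genes kept by filterByExpr (17724) were fitted with edgeR 4.0.16 (R 4.3.3) as 1 mean per group over 24 libraries, with TMM scaling, a robust quasi-likelihood fit and 16 residual degrees of freedom. The 14 comparisons were AM against VM over the targets and within each, each target against TRAC, and target by protocol, with p adjusted within each over all genes. Alternatives were a filter at 1 CPM in 3 libraries, no filter, DESeq2 1.42.0, library size alone, RLE scaling, 2 replicate blocks, fits of the compared groups alone and each library left out; leaving out the VM libraries numbered 3, or ZNF711 from the average, was chosen after seeing the data. Same-numbered libraries deviated together (r of 0.12 to 0.79 over 11428 genes in 10 pairs of groups), so the numbers were taken to pair them. The fit was tested on simulated data.

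The 10 genes and all lists were chosen with earlier results of these data known. Text names all 10 genes, the up to 4 called genes of each list with the largest change in AM against VM over the targets (up to 3 in other comparisons), and the 2 genes most like each member of at least 3 log2 CPM (prior count 2). Marker genes appear as sums. Of the genes first put on the lists, 1 is not reported here and is left out of their counts. SMAD7, SMURF2 and the other genes outside this rule were named after their values were seen. Loci are from GENCODE 29. Promoter stretches are from RefSeq (GRCh38.p14), with entries matched for 8 of the 10 genes and not for BMP2 and BMP7.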

Additional observations from a re-analysis of the deposited data

How the results depend on the processing

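For the 55 member fold changes followed here, 8 alternatives with all libraries kept gave 430 fits, of which 391 kept their direction and side of the threshold, 38 became called and 1 turned, ID1 in AM against VM, at 0.014 with library size alone. The replicate block gave 8 of the new calls, which stand beside their results, and changed no other member call; it called 1 member in AM LHX2 and 1 in AM ZNF711 against TRAC. The replicate block within each protocol gave 19: it called 9 members in AM against VM over the targets (ID2, ID3 and BMP10 beside the 6), 6 with TRAC, 5 with LHX2, 5 with ZNF503 and 5 with ZNF711, against TRAC 1 in AM LHX2, 2 in AM ZNF711 and 2 in VM ZNF711, and 2 in the ZNF711 interaction. Of all 17724 genes it called 7967 over the targets, 4204 with TRAC, 3459 with LHX2, 3357 with ZNF503 and 4923 with ZNF711. Against TRAC it called 552 genes in AM LHX2, 94 in AM ZNF711 and 1485 in VM ZNF711, and 450 in the ZNF711 interaction. With no filter 5 members were called in AM against VM with ZNF503, 1 in VM ZNF711 against TRAC, and 2 of the intracellular and membrane inhibitors, against 5 with it. Of all genes that setting called 1891 in AM against VM with ZNF503 and 495 in VM ZNF711 against TRAC. Without the VM libraries numbered 3, ID1 over the targets (0.25), BMP2 with TRAC (0.14), BMP5 with ZNF503 (−0.067) and ID2 with ZNF711 (0.11) turned. In that fit 4 members were called over the targets, and 2 in VM ZNF711 against TRAC. Of all genes it called 5215 over the targets and 884 in VM ZNF711 against TRAC. With 1 library left out, 506 of 522 fits kept direction and side, 4 lost their call, 4 gained one and 8 turned. Values that turned ran from −0.15 to 0.038 for ID1 over the targets, −0.87 to 0.16 for BMP2 with TRAC, −0.060 to 0.43 for BMP5 with ZNF503, −0.016 to 0.37 for ID4 with ZNF711, −0.041 to 0.26 for ID2 with LHX2 and −0.27 to 0.12 for ID2 with ZNF711, and 0 to 1 members were called in VM ZNF711 against TRAC. BMP4 and BMP7 were called over the targets and within each target in every fit run. Over all genes, calls against TRAC or as an interaction, 0 to 3 per comparison, became 3 to 495 with no filter, 0 to 76 with DESeq2, 0 to 167 with only the compared groups, 0 to 402 with the replicate block, 0 to 1485 with it within each protocol and 0 to 884 without the VM libraries numbered 3. Within targets AM against VM went from 1517 to 2345 calls to 2642 to 4150 and 3357 to 4923 with the 2 blocks, and with TRAC from 2003 to 995 with only the compared groups. With library size alone the share of calls higher in AM went from 54.7% to 65.9% with LHX2 and from 53.8% to 64.7% with ZNF503. The cause was not tested. Depth limits BMP10 most. The average over targets uses all groups, so it has no fit of the compared groups alone.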
